A study of Mus musculus with 6 samples.

Results

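Type IV collagen was followed here through its 6 genes, Col4a1 to Col4a6, in the apex of mouse hearts with and without cardiomyocyte Cre in a Fog2flox/delta background. The members are all probe sets whose annotated symbol is one of these genes: 12 of the 45037 non-control probe sets on the array. They comprise 2 probe sets for Col4a1, 1 for Col4a2, 2 for Col4a3, 3 for Col4a4, 2 for Col4a5 and 2 for Col4a6. No member was picked by its value, but the family was taken up with results of this same comparison already known, so every difference, adjusted p and count of its members below is a description and not independent evidence.

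The tested hearts were 3 Fog2flox/delta hearts with an alpha MHC Cre transgene (aMHC_Cre 1 to 3), and the hearts they were set against were 3 Fog2flox/delta hearts with no Cre (no_Cre 1 to 3). Both groups therefore carried 1 floxed and 1 delta allele of Fog2 (official symbol Zfpm2, a cofactor of GATA transcription factors), and the no_Cre hearts were not wild type. The alpha MHC promoter drives Cre in cardiomyocytes. A group with Cre but no floxed Fog2 allele was not part of the design, so that Cre itself and the loss of Fog2 cannot be told apart. All 6 mice were male and 6 to 7 weeks old, and each array held RNA from 1 heart. The question of the comparison was how gene expression in the adult heart depends on Fog2 in cardiomyocytes.

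Type IV collagen is the network-forming collagen of basement membranes, the thin sheets that surround every cardiomyocyte, capillary and smooth muscle cell of the heart. Its chains wind into trimers that join at their ends into a mesh. The chains of Col4a1 and Col4a2 make the form found in nearly all basement membranes. Those of Col4a3, Col4a4 and Col4a5 make a form best known from the kidney glomerulus, the cochlea, the lens and the lung, and mutations in these genes cause Alport syndrome in humans. Chains of Col4a5 and Col4a6 occur together in some smooth muscle and epithelial basement membranes. The genes lie in head-to-head pairs, with the partners transcribed away from each other from a common region.

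The 3 pairs were found as neighbouring protein-coding genes in the RefSeq gene table of mouse assembly GRCm38.p6, with Col4a1 and Col4a2 on chromosome 8, Col4a3 and Col4a4 on chromosome 1, and Col4a5 and Col4a6 on chromosome X. RefSeq promoter windows, from 250 bases before to 50 after a gene's start, were matched for 5 of the 6 members. The starts of Col4a1 and Col4a2 were 21 bases apart on opposite strands, so that the beginnings of both genes overlap, while those of Col4a5 and Col4a6 were 1343 bases apart. The regions between or before the starts are printed because each is the stretch that a pair of partners has in common, or that separates them. They are written 5′ to 3′ in lower case, with capitals for matches on either strand of CCAAT, of the GC box core GGGCGG, and of GATA. The first runs from the start of Col4a2 to that of Col4a1 (chr8:11312805-11312826, plus strand), the second the stretch between the starts of Col4a4 and Col4a3 (chr1:82586850-82586920, minus strand), the third the bases before the start of Col4a5 (chrX:141475169-141475418, plus strand) and the last those before the start of Col4a6 (chrX:141474077-141474326, minus strand), all in GRCm38.p6.
Col4a1 and Col4a2: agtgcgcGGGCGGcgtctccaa
Col4a4 and Col4a3: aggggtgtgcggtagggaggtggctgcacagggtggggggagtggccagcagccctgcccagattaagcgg
Col4a5: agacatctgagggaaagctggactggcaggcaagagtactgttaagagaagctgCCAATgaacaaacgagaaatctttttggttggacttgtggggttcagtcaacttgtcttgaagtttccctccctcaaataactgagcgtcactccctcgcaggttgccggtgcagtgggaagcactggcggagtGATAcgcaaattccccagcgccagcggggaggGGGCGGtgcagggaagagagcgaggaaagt
Col4a6: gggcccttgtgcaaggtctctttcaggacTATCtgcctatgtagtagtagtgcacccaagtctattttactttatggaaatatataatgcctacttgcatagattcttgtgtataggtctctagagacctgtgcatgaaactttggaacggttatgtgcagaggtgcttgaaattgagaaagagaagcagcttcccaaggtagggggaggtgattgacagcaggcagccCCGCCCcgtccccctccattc

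The stretches differed in base composition. Bases G and C made up 72.7% of the stretch between the starts of Col4a1 and Col4a2 and 69.0% of the stretch between Col4a4 and Col4a3, against 54.0% before Col4a5 and 47.6% before Col4a6. The stretches differ in kind and in length (22, 71, 250 and 250 bases), so these shares do not compare like with like. In the whole 300-base windows, GATA or its reverse complement TATC, the core that GATA factors bind, was found 0 times for Col4a1, Col4a2 and Col4a4, 1 time for Col4a5 and 2 times for Col4a6, and 57.9% of the 32851 windows in the table hold it. GGGCGG (or CCGCCC) occurred 1 time for Col4a1, 3 times for Col4a2, 0 times for Col4a4 and 1 time each for Col4a5 and Col4a6, against 35.7% of all windows with at least 1. CCAAT (or ATTGG) occurred 1 time each for Col4a1, Col4a2 and Col4a5 and 0 times for Col4a4 and Col4a6, against 37.4% of all windows. The windows of Col4a1 and Col4a2 overlap and share the GGGCGG printed in capitals. These are matches of letters only.

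Across the series, array medians were 5.72 to 5.81 on the log2 scale. Over the 27022 tested probe sets, pairs of arrays correlated at 0.980 to 0.987 within groups and at 0.964 to 0.973 between groups, across probe sets that are not independent replicates. The control probe sets for the 3′ and 5′ ends of a transcript, whose difference is read as a sign of RNA quality, did not overlap between the groups. The 3′ minus 5′ signal averaged 0.27 in aMHC_Cre hearts and 0.35 in no_Cre hearts for Actb, and -0.06 in aMHC_Cre hearts and -0.11 in no_Cre hearts for Gapdh (exact two-sided permutation p = 0.1 each, the smallest that 3 against 3 allow). Their part in the results below was not tested. Of the Zfpm2 probe sets, 1419012_at differed by -0.88 and 1449314_at by 1.68, in opposite directions, and their positions against the deleted part of the gene were not analysed here, so neither checks the labels.

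All 12 type IV collagen probe sets had a higher mean in aMHC_Cre hearts. Among the tested ones the largest differences were in Col4a3 and Col4a4, 2.05-fold to 3.32-fold, followed by Col4a5 and Col4a6, and the smallest were in Col4a1 and Col4a2, which did not pass the test. In 11 of the 12 the groups did not overlap, which was the case, in this direction, for 9.44% of all 45037 probe sets. Of the 12, 10 were bright enough to be tested, and 7 of these passed at an adjusted p of 0.05 as higher (both of Col4a3, both tested ones of Col4a4, both of Col4a5 and 1 of Col4a6), while 0 passed as lower (limma, also 0 lower at an unadjusted p under 0.05). The shares over all tested probe sets were 3.43% higher and 1.79% lower, 5.23% in all. Of the 7, 1 (Col4a3 1438779_at) passed the filter on dim signals only through the aMHC_Cre hearts, and aside from it 6 of 9 passed. Counted by the brightest probe set of each gene, 4 of 6 genes passed as higher, beside 4.2% of 13062 genes. Values are log2 PLIER signals, errors of means are SD over 3 hearts, and differences are aMHC_Cre minus no_Cre with the SE of the fit.

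**Figure D1:**
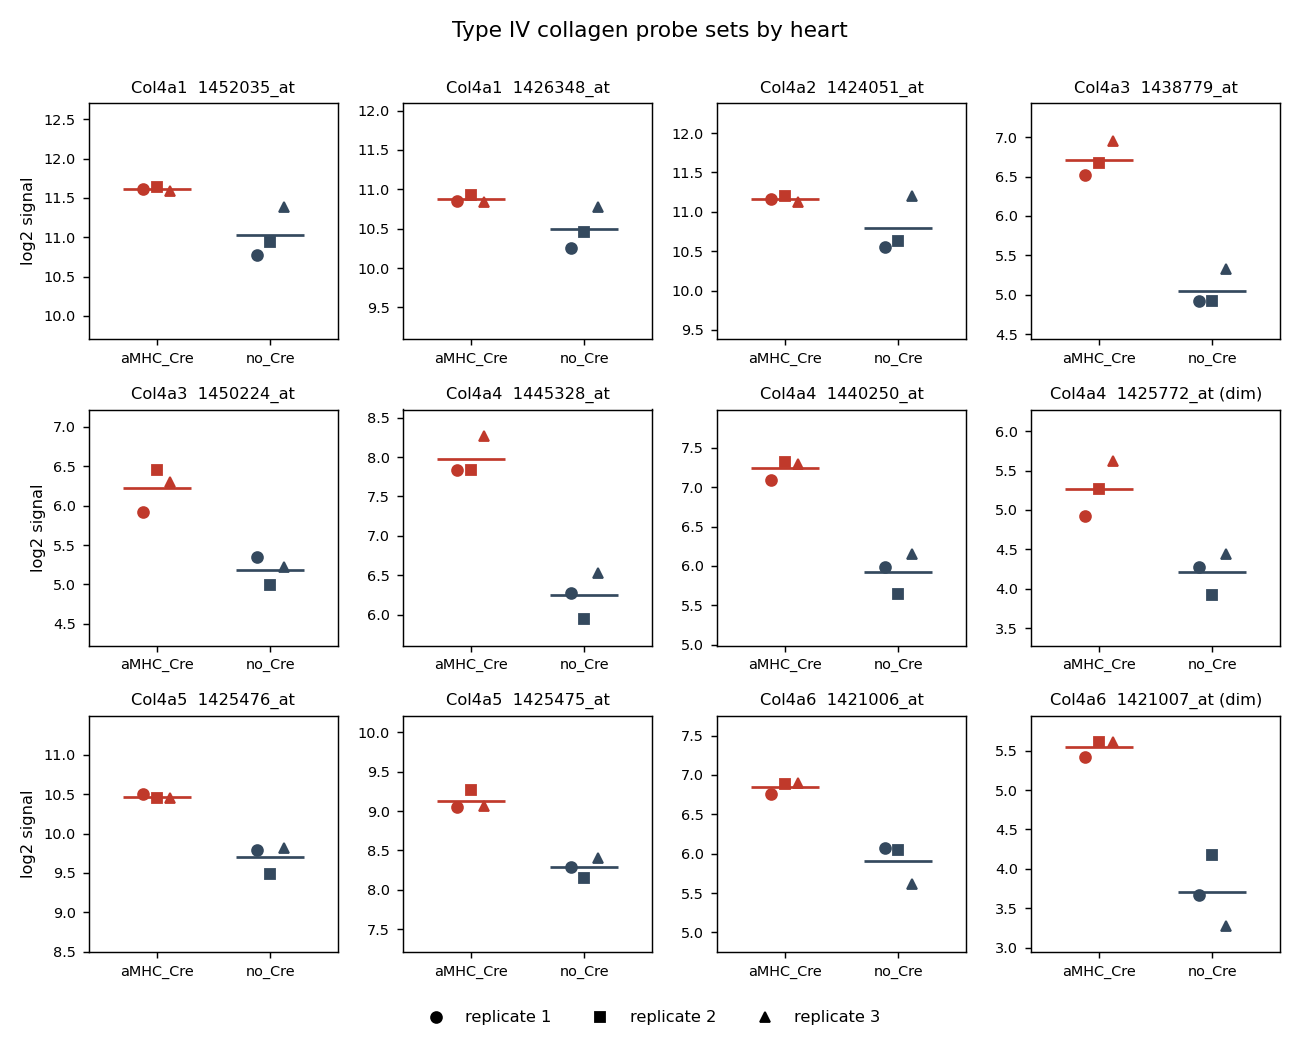
Log2 signal (vertical axes, each spanning the same number of log2 units) of the 12 type IV collagen probe sets in each heart, with aMHC_Cre hearts on the left and no_Cre hearts on the right of each panel; markers give the replicate number, lines the group means, and "dim" marks the 2 probe sets left out of the test. The groups overlap only for Col4a2, where no_Cre 3 lies at 11.20.

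In the first pair, Col4a1 encodes the more numerous chain of the usual trimer, and Col4a2 its partner. The brighter Col4a1 probe set, 1452035_at, read 11.61, 11.64 and 11.59 in aMHC_Cre hearts, against 10.77, 10.94 and 11.39 in no_Cre hearts. The aMHC_Cre hearts lay close together (SD 0.03), the no_Cre hearts did not (SD 0.32), and the groups were separated by 0.20. The difference was 0.58 ± 0.16, or 1.49-fold (95% interval 1.16 to 1.92), and missed the threshold (adjusted p 0.082). The other Col4a1 probe set, 1426348_at, read 10.85, 10.93 and 10.84 in aMHC_Cre hearts and 10.26, 10.45 and 10.78 in no_Cre hearts. Here the gap between the groups was 0.06 and the difference 0.38 ± 0.15, or 1.30-fold (1.03 to 1.64; adjusted p 0.22). Both Col4a1 probe sets were designed from the same sequence record, so they are not independent readings of the gene.

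Col4a2 read 11.17, 11.20 and 11.13 in aMHC_Cre hearts and 10.56, 10.63 and 11.20 in no_Cre hearts. No_Cre 3 thus stood at the level of the aMHC_Cre hearts, and Col4a2 was the only member whose groups overlapped. The difference was 0.37 ± 0.17, or 1.29-fold (0.987 to 1.69; adjusted p 0.31). The result of this pair turned on no_Cre 3: without it Col4a1 1452035_at differed by 0.76 and passed (adjusted p 0.019), Col4a2 differed by 0.57 and passed (adjusted p 0.046), and Col4a1 1426348_at differed by 0.52 without passing (adjusted p 0.078). Col4a1 1452035_at also passed with array weights (adjusted p 0.046), with trend and robust variance settings (0.026) and with 16 (0.0499) or 64 (0.032) added to the unlogged signal. Its difference of 0.56 to 0.63 under these settings stayed close to the value above.

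In the second pair, Col4a3 and Col4a4 encode chains of the Alport-type network, which in the trimer also needs the Col4a5 chain. Col4a3 probe set 1438779_at read 6.53, 6.67 and 6.95 in aMHC_Cre hearts and 4.92, 4.91 and 5.32 in no_Cre hearts, with a gap of 1.20 between the groups. It rose by 1.66 ± 0.16, or 3.17-fold (2.46 to 4.07; adjusted p 0.00066). Its no_Cre mean of 5.05 lay under the filter limit of 5.16, so it entered the test through the aMHC_Cre hearts alone and had to differ. The other Col4a3 probe set, 1450224_at, read 5.92, 6.45 and 6.30 in aMHC_Cre hearts and 5.35, 4.996 and 5.22 in no_Cre hearts. It rose by 1.03 ± 0.16, or 2.05-fold (1.58 to 2.65; adjusted p 0.0079). The probe sets of Col4a3, designed from different sequences, shared the direction, and their sizes differed by 0.63.

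Col4a4 had 3 probe sets from 3 different sequences. The brightest, 1445328_at, read 7.84, 7.84 and 8.26 in aMHC_Cre hearts and 6.27, 5.95 and 6.53 in no_Cre hearts, a gap of 1.31 between the groups, the widest of the 12 members. It rose by 1.73 ± 0.18, or 3.32-fold (2.51 to 4.40; adjusted p 0.00091). Probe set 1440250_at read 7.10, 7.33 and 7.30 in aMHC_Cre hearts and 5.98, 5.65 and 6.15 in no_Cre hearts, and rose by 1.31 ± 0.15 or 2.48-fold (1.96 to 3.15; adjusted p 0.0017). The dimmest, 1425772_at, fell under the filter and read 4.92, 5.27 and 5.63 in aMHC_Cre hearts and 4.27, 3.93 and 4.45 in no_Cre hearts. It differed by 1.06 ± 0.23 in the fit of all probe sets without passing (adjusted p 0.16). The 3 probe sets had the same order of no_Cre hearts, with no_Cre 3 highest and no_Cre 2 lowest.

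In the third pair, Col4a5 was the bright partner. Its probe set 1425476_at read 10.50, 10.45 and 10.45 in aMHC_Cre hearts and 9.79, 9.49 and 9.81 in no_Cre hearts, with a gap of 0.63. It rose by 0.77 ± 0.13, or 1.70-fold (1.40 to 2.07; adjusted p 0.0095). Its other probe set, 1425475_at, read 9.05, 9.27 and 9.06 in aMHC_Cre hearts and 8.29, 8.15 and 8.41 in no_Cre hearts, and rose by 0.84 ± 0.13 or 1.80-fold (1.48 to 2.19; adjusted p 0.0060). The sizes from the probe sets of Col4a5 differed by 0.08, less than the SE of either, though both were designed from 1 sequence record.

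Col4a6, the partner of Col4a5, encodes a chain of smooth muscle and epithelial basement membranes. Probe set 1421006_at read 6.75, 6.89 and 6.89 in aMHC_Cre hearts and 6.08, 6.05 and 5.61 in no_Cre hearts, and rose by 0.93 ± 0.15 or 1.91-fold (1.51 to 2.41; adjusted p 0.0081). The dimmer 1421007_at fell under the filter and read 5.42, 5.61 and 5.62 in aMHC_Cre hearts and 3.67, 4.17 and 3.27 in no_Cre hearts. In the fit of all probe sets it differed by 1.85 ± 0.24 without passing (adjusted p 0.058). The sizes from the probe sets of Col4a6, both from 1 sequence record, differed by 0.91, the largest disagreement within a member gene. Unlike the other genes, Col4a6 had its lowest value in no_Cre 3, in both probe sets.

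**Figure D2:**
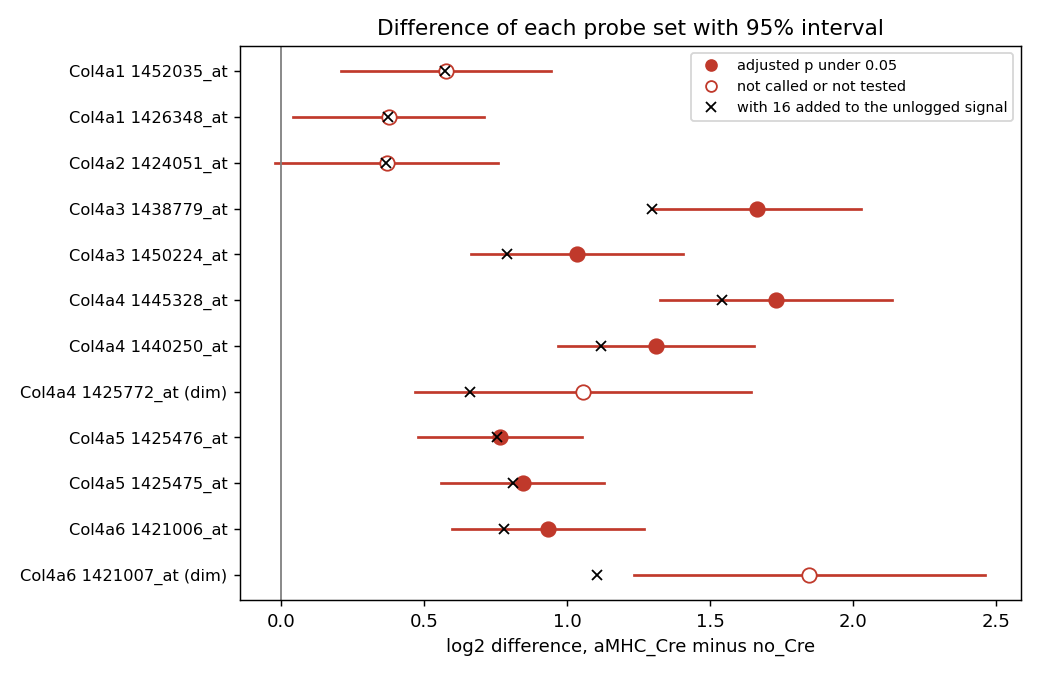
Log2 difference, aMHC_Cre minus no_Cre (horizontal axis), of each type IV collagen probe set with its 95% interval; filled circles passed at an adjusted p of 0.05, open circles did not pass or were not tested, and crosses are the difference with 16 added to the unlogged signal. All 12 circles and crosses lie above 0, and the interval of Col4a2 alone reaches below 0 (-0.02).

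The members nearest to the filter limit of 5.16 were Col4a3 1450224_at, inside it with a mean of 5.71 over the 6 hearts, and Col4a4 1425772_at, outside it at 4.74. A constant added before the logarithm shrinks differences between dim signals most. With 16 added, the brightest probe sets differed by 0.57 for Col4a1, 0.37 for Col4a2, 1.30 for Col4a3, 1.54 for Col4a4, 0.75 for Col4a5 and 0.78 for Col4a6. With 64 added they were 0.56 for Col4a1, 0.36 for Col4a2, 0.80 for Col4a3, 1.17 for Col4a4, 0.72 for Col4a5 and 0.52 for Col4a6. Col4a4 stayed the largest under both, while Col4a6 fell under Col4a5 and Col4a1 with 64 added. So did the other Col4a3 probe set, 1450224_at, at 0.47, so the order of the members depended on the scale. Without the filter on dim probe sets, 2 of the 12 members passed, Col4a3 1438779_at (adjusted p 0.038) and Col4a4 1445328_at (0.047), beside 0.502% of all 45037 probe sets that passed as higher. In that fit 10 of the 12 had an unadjusted p under 0.05. The share of all probe sets at an unadjusted p was not worked out. This count and those at an unadjusted p in the lists below thus have no background beside them.

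The partners of a pair were compared through the difference between their brightest probe sets within each heart. The size of this value reflects the probes, and its change between the groups compares the changes of the 2 probe sets used. Probe sets of 1 gene differed in their change by up to 0.91 (Col4a6). A change in the value therefore cannot by itself show that the partner genes moved by different amounts. For Col4a1 minus Col4a2 the value was 0.44, 0.44 and 0.45 in aMHC_Cre hearts and 0.21, 0.32 and 0.19 in no_Cre hearts. The groups did not overlap, and Col4a1 differed by 0.21 more than Col4a2 (SE 0.04, 95% interval 0.09 to 0.32; exact permutation p = 0.1, adjusted 0.3 over 3 pairs). With the mean of both Col4a1 probe sets this was 0.11 (exact p = 0.2).

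For Col4a3 minus Col4a4 the within-heart value was -1.32, -1.17 and -1.31 in aMHC_Cre hearts and -1.35, -1.03 and -1.21 in no_Cre hearts, and the groups overlapped. With Col4a3 1438779_at and Col4a4 1445328_at the difference between the changes was -0.07 (95% interval -0.35 to 0.22, exact permutation p = 0.7, adjusted 0.7). A gap of up to about 0.35 is inside the interval for these probe sets. Col4a3 1438779_at entered the test through the aMHC_Cre hearts alone. The other Col4a3 probe set, 1450224_at, rose by 1.03, less than Col4a4 1445328_at (1.73) and 1440250_at (1.31). The within-heart value was not worked out with 1450224_at, so equal changes of the partner genes cannot be read from -0.07. The mean over all probe sets of each gene, where the dim Col4a4 probe set enters, gave -0.02 (exact permutation p = 0.8). For the brightest probe sets the difference was -0.24 with 16 added to the unlogged signal and -0.37 with 64 added. The groups then did not overlap (exact p = 0.1), but the dimmer Col4a3 is compressed more than Col4a4 by the construction of these settings. For Col4a5 minus Col4a6 the value was 3.74, 3.56 and 3.56 in aMHC_Cre hearts and 3.72, 3.44 and 4.20 in no_Cre hearts. The change was -0.17, with a wide interval of -0.81 to 0.47 (exact permutation p = 0.7, adjusted 0.7). It was 0.04 without no_Cre 3, 0.20 with 64 added to the unlogged signal (exact p = 0.3), and -0.59 with the mean over all probe sets, where the groups did not overlap (exact p = 0.1) and the dim Col4a6 probe set enters.

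**Figure D3:**
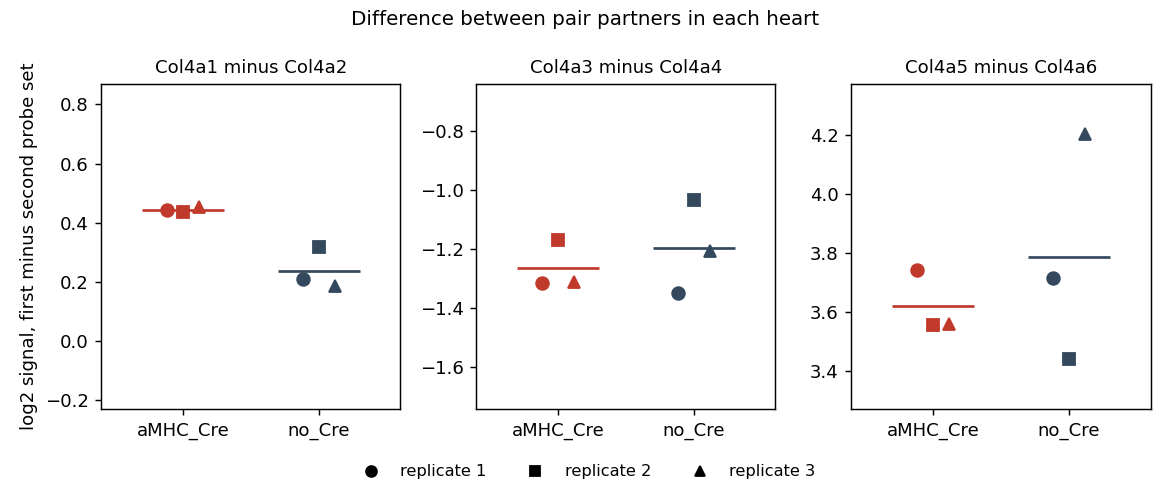
Difference in log2 signal between the brightest probe sets of pair partners in each heart (vertical axis, the same span in each panel), with aMHC_Cre hearts on the left and no_Cre hearts on the right; markers give the replicate number and lines the group means. The groups are apart for Col4a1 minus Col4a2 (means 0.44 and 0.24) and overlap for the other pairs.

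Between pairs, all 12 combinations of genes that are not partners were compared in the same way, with an exact permutation p of at least 0.1, the smallest possible (adjusted at least 0.12 over 12). Col4a4 1445328_at differed by 1.15 more than Col4a1 (95% interval 0.56 to 1.75) and by 1.36 more than Col4a2 (0.79 to 1.93). These stayed above 0 with the other tested Col4a4 probe set, at 0.73 (0.25 to 1.22) against Col4a1 and 0.94 (0.48 to 1.40) against Col4a2, and with 64 added to the unlogged signal, at 0.61 and 0.81. Col4a3 1438779_at, which entered the test through the aMHC_Cre hearts, differed by 1.09 more than Col4a1 (0.66 to 1.51) and by 1.29 more than Col4a2 (0.85 to 1.73). With the other Col4a3 probe set, 1450224_at, the intervals included 0: the value was 0.46 (-0.29 to 1.21) against Col4a1 and 0.66 (-0.09 to 1.42) against Col4a2. With 64 added it was 0.24 (-0.21 to 0.68) against Col4a1 and 0.44 (-0.05 to 0.93) against Col4a2, so a larger difference in Col4a3 than in the first pair depended on the probe set and on the scale.

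Col4a5, whose chain joins those of Col4a3 and Col4a4 in 1 trimer, had a smaller difference than Col4a4 in the tested probe sets. Col4a5 1425475_at (0.84) and the dim Col4a4 1425772_at (1.06) were not compared within hearts. As for partners, such values cannot by themselves show that the genes moved by different amounts. Col4a5 minus Col4a4 was -0.96 (-1.44 to -0.49), -0.55 (-0.84 to -0.25) with the other tested Col4a4 probe set and -0.45 (-0.80 to -0.10) with 64 added. Col4a5 minus Col4a3 was -0.90 (-1.39 to -0.40) with 1438779_at but -0.27 (-0.77 to 0.23) with 1450224_at and -0.08 (-0.41 to 0.26) with 64 added, where the groups overlapped. The intervals of all other combinations included 0. Col4a5 minus Col4a1 was 0.19 (-0.32 to 0.70) and Col4a5 minus Col4a2 was 0.40 (-0.11 to 0.91). Col4a6, with its spread between no_Cre hearts, gave 0.36 (-0.58 to 1.29) against Col4a1, 0.56 (-0.44 to 1.56) against Col4a2, -0.73 (-1.56 to 0.11) against Col4a3 and -0.80 (-1.71 to 0.11) against Col4a4. These alternatives were chosen after seeing the data.

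Likeness of profiles was measured as the root mean square distance over the 6 hearts between centred log2 values of the brightest tested probe sets, among 13061 other genes. Col4a3 was the gene most like Col4a4 (rank 1, distance 0.11), and Col4a4 ranked 2 for Col4a3, after Bex4. Col4a2 ranked 19 for Col4a1, and Col4a1 ranked 42 for Col4a2. Col4a6 ranked 802 for Col4a5, and Col4a5 ranked 150 for Col4a6. The 5 genes most like Col4a1 were Erf, Pcbd1, Ptpn9, Gab2 and Igfbp5, at distances of 0.087 to 0.091. The Col4a3 ranks are those of 1438779_at, which entered the test through the aMHC_Cre hearts alone. The other tested Col4a3 probe set was not ranked. It rose by 1.03, against 1.73 for the brightest Col4a4 probe set. These ranks reuse the contrast between the groups and describe 6 hearts only.

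Genes that make, partner, bind or degrade type IV collagen were listed as well, each through its brightest tested probe set. Of 13 basement membrane partners (laminins, nidogens, proteoglycans and other components) 5 rose and 0 fell, with a median of 0.34, beside 4.2% of all genes that rose, 2.04% that fell and a median of -0.01. Nid2, which encodes nidogen-2, a linker between laminin and type IV collagen, read 9.40, 9.22 and 9.33 in aMHC_Cre hearts and 8.11, 7.96 and 7.17 in no_Cre hearts, and rose by 1.56 ± 0.22. Lama4, a laminin chain of vessel basement membranes, rose by 0.82 ± 0.11, while another tested probe set of it differed by 0.46 without passing. Col15a1, a basement membrane collagen, rose by 1.36 ± 0.27, Sparc, a matricellular protein that binds type IV collagen, by 0.71 ± 0.14, and Col18a1, which completes the 5, by 0.57 ± 0.11. The call of Col15a1 was lost without aMHC_Cre 2, aMHC_Cre 3, no_Cre 1 or no_Cre 2 and that of Sparc without aMHC_Cre 2, aMHC_Cre 3 or no_Cre 1 (adjusted p up to 0.089). Another tested probe set of Sparc differed by -0.38, and the list's count was 2 without aMHC_Cre 2 or no_Cre 1, 3 without aMHC_Cre 3 or no_Cre 2, and 1 without the filter.

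Of 14 tested genes for folding, modification and secretion of collagen chains, 2 rose and 0 fell, with a median of 0.33 (limma, 8 higher and 1 lower at an unadjusted p under 0.05). P3h2, the prolyl 3-hydroxylase known for modifying type IV collagen, read 7.72, 7.59 and 7.83 in aMHC_Cre hearts and 5.01, 5.49 and 5.18 in no_Cre hearts. The groups were far apart, and P3h2 rose by 2.49 ± 0.15 (limma adjusted p 4.8e-05), a larger difference than in any type IV collagen probe set. Its no_Cre mean of 5.23 lay just above the filter limit of 5.16, so the size of this difference is uncertain. P3h2 passed without any single heart (adjusted p up to 0.00092) and without the filter (0.014). Serpinh1, the collagen chaperone Hsp47, rose by 0.61 ± 0.14 and kept its call only without no_Cre 3 among the fits that left out 1 heart. The count of this list was 1 without any one heart other than no_Cre 3, 6 with trend and robust variance settings, 4 with the stricter filter or 16 added to the unlogged signal and 5 with 64 added.

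Of 5 tested genes for cross-linking enzymes, 2 rose and 0 fell (median 0.53; 0 lower at an unadjusted p under 0.05). Pxdn, the peroxidase that forms the sulfilimine bonds of the type IV network, rose by 0.70 ± 0.15, with 9.91, 9.88 and 9.80 in aMHC_Cre hearts and 9.15, 8.89 and 9.46 in no_Cre hearts. Loxl1, a lysyl oxidase-like enzyme, rose by 0.85 ± 0.16. Pxdn kept its call in only 1 of the 6 fits that left out a heart, that without no_Cre 3 (adjusted p up to 0.12), and Loxl1 in 2 of 6. None of 5 receptor genes passed in limma (0 at an unadjusted p under 0.05; median 0.10): Itga1, an integrin chain for type IV collagen, differed by 0.31 ± 0.16, with another tested probe set at -0.08, and Itga2, likewise, by -0.23 ± 0.15.

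Of 6 tested proteases and inhibitors, Timp1 rose by 1.75 ± 0.21 and Timp2 by 0.67 ± 0.11, both inhibitors of matrix metalloproteinases, and 0 fell (also 0 at an unadjusted p under 0.05; median 0.47). The call of Timp2 was lost without aMHC_Cre 2 (adjusted p 0.053), and the list had 1 call without that heart, 0 without the filter and 4 with trend and robust variance settings. Among fibrillar and other collagens 11 of 13 rose and 0 fell, with a median of 1.16. Col14a1 rose by 2.38 ± 0.13, Col1a1 by 1.41 ± 0.21, Col3a1 by 1.35 ± 0.21 and Col8a1 by 1.29 ± 0.22. These changes of Col1a1 and Col3a1, chains of the interstitial fibrils, lay between those of the brightest probe sets of Col4a6 and Col4a3. Another tested Col3a1 probe set rose by 2.06, above Col4a3 and Col4a4, so this place depends on the probe set. The collagen count was 7 without aMHC_Cre 2 and 1 without the filter.

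**Figure D4:**
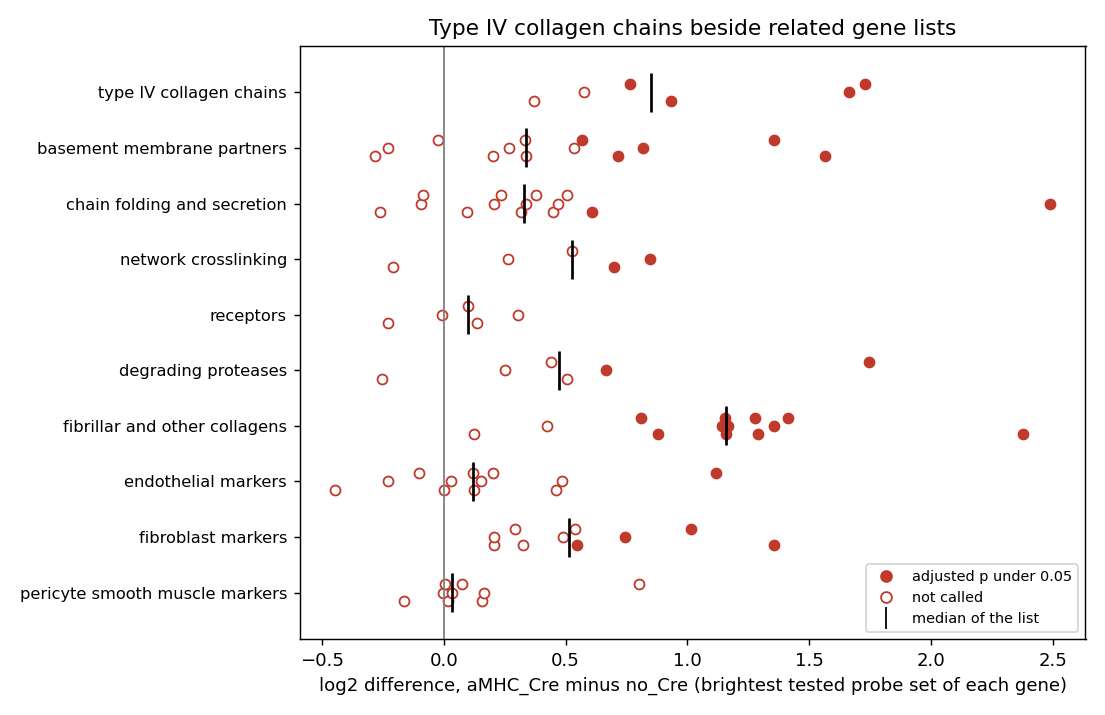
Log2 difference, aMHC_Cre minus no_Cre (horizontal axis), of each gene through its brightest tested probe set, for the type IV collagen genes in the top row and related lists and cell type markers in the rows under it; filled circles passed at an adjusted p of 0.05 and black bars are list medians. Of the 6 type IV collagen genes, Col4a3 and Col4a4 lie at 1.66 and 1.73, and P3h2 lies at 2.49 among the folding and secretion genes.

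Markers of cell types that the apex can hold were set beside these values, since fewer or more cells of a type and less or more RNA per cell cannot be told apart in whole tissue. Of 12 endothelial markers, whose cells lie on basement membrane, 1 rose and 0 fell: Vwf rose by 1.12 ± 0.17. The median of the 12 markers was 0.12, with 9 means higher (limma, 3 higher and 0 lower at an unadjusted p under 0.05). Their summed signal was 13.02 to 13.12 in aMHC_Cre hearts and 12.75 to 13.02 in no_Cre hearts (log2 of the sum), so the groups overlapped at no_Cre 3. That heart was also highest of its group for Col4a1, Col4a2, Col4a3 1438779_at, Col4a4 and Col4a5, but not for Col4a3 1450224_at or Col4a6. Its sums were also highest of its group for pericyte and smooth muscle, macrophage, cardiomyocyte, adipocyte and mesothelial markers (the last through Upk1b alone). They were not for fibroblast, atrial cardiomyocyte and Schwann cell markers. Of 10 fibroblast markers 4 rose and 0 fell: Postn rose by 1.36 ± 0.19, Mfap5 by 1.02 ± 0.18, Lum by 0.74 ± 0.12 and Dpt by 0.55 ± 0.13. All 10 had a higher mean in aMHC_Cre hearts, with a median of 0.51 (limma, 8 higher and 0 lower at an unadjusted p under 0.05). Their sum was 14.63 to 14.72 in aMHC_Cre hearts and 14.18 to 14.34 in no_Cre hearts, without overlap. The call of Dpt was lost without any single heart (adjusted p up to 0.15) and that of Mfap5 without aMHC_Cre 2 (0.063). None of 9 pericyte and smooth muscle markers passed in limma (1 higher at an unadjusted p under 0.05). Their sum was 14.16 to 14.27 in aMHC_Cre hearts and 13.99 to 14.21 in no_Cre hearts, with Acta2 at 0.80 ± 0.30 and Des at 0.16 ± 0.12, and another tested Des probe set at -0.25.

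None of 8 cardiomyocyte markers passed in limma (0 at an unadjusted p under 0.05), and their sum was 16.51 to 16.57 in aMHC_Cre hearts and 16.55 to 16.59 in no_Cre hearts, with Ryr2 at 0.12 ± 0.11 and Mb at -0.11 ± 0.11. Of 4 tested atrial cardiomyocyte markers, 2 rose and 0 fell (limma, 1 lower at an unadjusted p under 0.05). Nppa rose by 2.03 ± 0.17, while Tbx5 differed by -0.49 ± 0.12 (adjusted p 0.058) and Myl4 by -0.02 ± 0.13. Myl7 read 10.72, 11.42 and 10.92 in aMHC_Cre hearts and 4.34, 3.39 and 3.42 in no_Cre hearts. It rose, but its no_Cre mean of 3.72 lay under the filter limit, so it entered the test through the aMHC_Cre hearts alone and the size of its difference is uncertain. The list's sum was 13.93 to 13.99 in aMHC_Cre hearts and 11.68 to 12.24 in no_Cre hearts. None of 9 macrophage markers passed in limma (1 lower at an unadjusted p under 0.05). Their sum was 12.08 to 12.24 in aMHC_Cre hearts and 11.94 to 12.28 in no_Cre hearts, with Cd68 at 0.22 ± 0.11 and Cd14 at -0.33 ± 0.14. Of 6 mesothelial and epicardial markers, which belong to an epithelium with its own basement membrane, only Upk1b had a tested probe set under its symbol. It read 7.88 to 8.19 in aMHC_Cre hearts and 7.17 to 7.59 in no_Cre hearts, rose by 0.63 ± 0.15 and lost its call in 5 of 6 fits without a heart (adjusted p up to 0.14).

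None of 2 tested adipocyte markers passed in limma (0 at an unadjusted p under 0.05), with Lep at -0.17 ± 0.16 and Fabp4, which endothelial cells also express, at -0.14 ± 0.12; their sum was 12.82 to 13.06 in aMHC_Cre hearts and 12.97 to 13.13 in no_Cre hearts. None of 4 tested Schwann cell markers passed (1 higher at an unadjusted p under 0.05), with S100b at 0.40 ± 0.13 and Sox10 at 0.26 ± 0.12, and a sum of 8.88 to 9.03 in aMHC_Cre hearts and 8.80 to 8.91 in no_Cre hearts. The part of any cell type in the type IV collagen values was not tested.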

How the data were processed

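Total RNA of the heart apex was hybridised to Affymetrix arrays, 1 heart per array. Values deposited by the authors are log2 signals from PLIER, per the submitters' processing notes. PLIER's settings and array normalization are not given there, and base 2 is inferred from array maxima of 13.97 to 14.00. Each array holds 749 to 902 values below 0, so differences of dim probe sets are unsteady. No detection calls were used, and the number of arrays limits the precision.

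Of 45101 probe sets, 64 were controls and 18015, the dimmest 40% of the rest by mean signal, were filtered out, leaving 27022. The test was limma 3.58.1 under R 4.3.3 (lmFit and eBayes, two-sided, no covariates) and Benjamini-Hochberg adjustment over all tested probe sets. Dim members take values from the same fit of all probe sets. Symbols came from the platform annotation (34945 probe sets with 1 symbol, 932 with several, 9160 with none) and were matched to RefSeq. Replicates are separate hearts per the labels. Pair partners were compared with exact permutation tests. All members are named; of each list up to 4 genes past the threshold with the largest difference, or up to 2 if none passes. Members and lists were chosen with earlier results of these data known. The procedure was tested on simulated data. Alternatives were quantile normalization, median centring, other filters, variance settings, array weights, a replicate block, offsets of 16 or 64 and leaving out each heart.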

Additional observations from a re-analysis of the deposited data

How the results depend on the processing

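The direction of the 10 tested type IV collagen probe sets was kept under each alternative that tested them; with the lowest 60% left out, both Col4a3 probe sets and Col4a6 1421006_at were not tested. Of the 7 that passed, all kept their call whichever heart was left out, and members called higher numbered 7 to 9, with 9 without no_Cre 3. Without a filter 2 of 12 members passed, and with the lowest 60% left out 4 of the 7 then tested. Over all probe sets 275 passed without a filter, against 1412, and 600 to 1075 when 1 heart was left out; the cause was not tested. The deviations of same-numbered hearts correlated at -0.06, 0.21 and -0.19. Differently numbered hearts were not set beside these values, so whether the numbers pair the samples was not tested. With the replicate block 909 probe sets passed, and no member's call changed: all 7 members passed. The difference between partners was 0.11 for Col4a1 minus Col4a2 and -0.59 for Col4a5 minus Col4a6 (exact permutation p = 0.1) with the mean over all probe sets. With 64 added to the unlogged signal it was -0.37 for Col4a3 minus Col4a4 and 0.20 for Col4a5 minus Col4a6, and with 16 added -0.24 for Col4a3 minus Col4a4, both offsets chosen after seeing the data for this value. Without 1 heart it ranged from 0.18 to 0.25 for Col4a1 minus Col4a2, -0.14 to 0.01 for Col4a3 minus Col4a4 and -0.34 to 0.04 for Col4a5 minus Col4a6. Genes called numbered 4 of 6 with the mean or the dimmest of the tested probe sets too.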
